A study of Mus musculus with 4 samples.

Results

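The 37 genes described here make cholesterol and fatty acids, control or export cholesterol, or build the galactolipids of myelin, and they were chosen as a list by name out of 32285 genes counted in mouse hypothalamus. Hypothalami of 12 adult male mice on the C57/BL6NCr background were measured by single-nucleus RNA sequencing, in which RNA is counted in isolated nuclei. The controls were wild type (WT), and the TRα1+m animals were heterozygous for a mutant thyroid hormone receptor α1 whose affinity for the hormone is lowered. The mutation is germline and sits beside a normal allele, so a difference in a cell type cannot be assigned to the receptor in that cell type or to the adult stage. Each library held pooled nuclei from 3 animals with the same genotype, and each of 2 experimental repeats gave 1 WT and 1 TRα1+m library. The comparison of genotypes therefore rests on n = 2 pooled libraries a group, and its p-values measure the spread between pools only.

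Cholesterol is built from acetyl-CoA units that are joined to a sterol precursor, shortened to isoprene units, condensed to squalene, closed to lanosterol and then trimmed to cholesterol. The transcription factor SREBP2, the product of Srebf2, drives most genes of that route when membrane sterol is low, SREBP1, the product of Srebf1, drives fatty acid synthesis, and Insig1 holds both in the endoplasmic reticulum when sterol is plentiful. In the adult brain cholesterol is made locally, since lipoproteins of the blood do not pass the barrier. Oligodendrocytes need it for myelin, together with galactosylceramide and its sulfated form sulfatide, and astrocytes load cholesterol through Abca1 onto particles that carry Apoe. Thyroid hormone acts through receptors that bind the hexamer AGGTCA in pairs, and it is known to affect both myelination and lipid synthesis in other tissues.

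The proximal promoters of 4 members are shown as examples. They were called between genotypes in oligodendrocytes only with the experimental repeat in the model (values follow). They were picked because they hold letters that the control of this pathway is known to read. Insig1 lies at chr5:28071162-28071461 on the plus strand, Hmgcs1 at chr13:119690101-119690400 on the plus strand, Msmo1 at chr8:64733529-64733828 on the minus strand and Elovl5 at chr9:77917115-77917414 on the plus strand (RefSeq, build GRCm38.p6). Each window runs from 250 bases before to 50 bases after the start site, and capitals mark the CCAAT box or its reverse complement (ATTGG), the hexamer AGGTCA or its reverse complement (TGACCT), and the sterol element TCACCCCAC.
Insig1: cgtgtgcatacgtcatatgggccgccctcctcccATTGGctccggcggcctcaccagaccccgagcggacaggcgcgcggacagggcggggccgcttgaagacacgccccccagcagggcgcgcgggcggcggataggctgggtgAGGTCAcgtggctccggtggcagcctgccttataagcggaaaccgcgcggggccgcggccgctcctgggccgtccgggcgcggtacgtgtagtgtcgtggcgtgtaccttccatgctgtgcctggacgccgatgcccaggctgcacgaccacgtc
Hmgcs1: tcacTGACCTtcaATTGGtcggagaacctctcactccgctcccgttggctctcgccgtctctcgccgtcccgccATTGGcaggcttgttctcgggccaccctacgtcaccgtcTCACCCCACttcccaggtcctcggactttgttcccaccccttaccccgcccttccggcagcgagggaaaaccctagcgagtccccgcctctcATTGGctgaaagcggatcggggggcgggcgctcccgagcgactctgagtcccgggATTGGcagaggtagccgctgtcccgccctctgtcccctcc
Msmo1: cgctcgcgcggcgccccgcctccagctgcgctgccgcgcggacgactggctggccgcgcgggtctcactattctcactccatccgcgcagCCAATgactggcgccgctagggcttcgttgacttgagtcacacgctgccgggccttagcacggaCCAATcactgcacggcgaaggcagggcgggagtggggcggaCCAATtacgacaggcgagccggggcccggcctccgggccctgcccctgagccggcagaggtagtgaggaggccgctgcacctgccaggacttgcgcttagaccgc
Elovl5: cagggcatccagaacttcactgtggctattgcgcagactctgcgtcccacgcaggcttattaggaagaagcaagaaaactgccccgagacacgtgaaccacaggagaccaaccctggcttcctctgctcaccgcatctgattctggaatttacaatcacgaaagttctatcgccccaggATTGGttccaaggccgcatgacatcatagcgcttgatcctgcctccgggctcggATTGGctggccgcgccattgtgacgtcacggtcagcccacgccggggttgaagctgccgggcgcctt
Promoters of 30 of the 37 members were matched, 15 of them genes of cholesterol synthesis enzymes. No promoter was matched for Fdps, Fdft1, Sqle, Scd1, Scd2, Fads1 and Fa2h. CCAAT, searched on both strands, was present in 22 of the 30 and in 14 of the 15 enzyme genes, against 41.1% of 27025 genes with a promoter. The GC box GGGCGG was present in 23 of the 30 and again in 14 of the 15, against 38.2% of genes. The sterol element, searched as TCACNCCAC with N for any base, was found in Hmgcs1 alone, 137 bases before the start, and in 1.44% of genes. AGGTCA stood in 6 members, Acly, Dhcr7, Elovl1, Elovl6, Hmgcs1 and Insig1, and in 18.1% of genes. AGGTCA in direct repeat with a spacer of 4 bases was in none of the 30 and in 0.0148% of genes. Genes with several start sites were counted as holding a motif where any of their windows did. Among the promoters shown, Msmo1 has CCAAT at 160, 96 and 55 bases before the start, and Insig1 has AGGTCA at 105 bases before it. Gal3st1 and Apoe, which were also called between genotypes in oligodendrocytes with the repeat in the model, are not shown. Of the motifs searched, Gal3st1 had CCAAT alone and Apoe had none. A match or its absence describes these windows only.

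The cell types were those of the deposited annotation, in which 56386 nuclei were kept, between 11976 and 16435 a library. Oligodendrocytes numbered 1396 to 1685 nuclei a library with 2525236 to 2713480 UMIs (unique molecular identifiers, each 1 counted transcript), and astrocytes 1983 to 2859 nuclei with 4260276 to 5337732 UMIs. The astrocyte cluster included the tanycytes, ependymal cells of the third ventricle, with 261 to 425 nuclei a library. The cluster labelled microglia differed between repeats in the microglial gene C1qa. It held 255 and 1663 C1qa UMIs in 412 and 468 WT nuclei, and 255 and 1442 in 507 and 392 TRα1+m nuclei. Whether it held the same cells in both repeats was not tested, which limits every microglial level given here. Library 2 of TRα1+m stood apart, with 852 nuclei of a neuronal cluster that held 1 to 6 in the other libraries, so results are also given without it. That fit holds a lone mutant library, whose spread is taken to equal that of WT. Between 44 and 64 barcodes of kept nuclei were shared by a pair of libraries. Oligodendrocyte markers were far higher in oligodendrocytes than in astrocytes, Mag at 693 to 1728 against 22.7 to 28.9 CPM and Mobp at 798 to 935 against 86.8 to 126 CPM. Levels are UMIs relative to all UMIs of the cell type in a library, scaled with TMM factors (CPM). They can be compared between libraries and, with the joint fit, between cell types, but not between genes.

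Myelin galactolipid genes and the elongase gene Elovl7 were much higher in oligodendrocytes than in astrocytes. Ugt8a, which adds galactose to ceramide, reached 877 ± 135 CPM in oligodendrocytes (SD, n = 4 libraries), 199 ± 26.6 in oligodendrocyte progenitor cells (OPCs), 46.7 ± 14.8 in microglia, 18.8 ± 2.52 in astrocytes and 13.7 ± 3.44 in neurons. Fa2h, which hydroxylates the fatty acid of these lipids, followed the same order with 515 ± 139, 139.5 ± 36.0, 24.4 ± 10.2, 9.28 ± 2.52 and 5.10 ± 1.41 CPM. Gal3st1, the enzyme that adds the sulfate of sulfatide, reached 181 ± 67.9 CPM in oligodendrocytes and 95.6 ± 24.99 in OPCs, while the others lay between 6.90 ± 2.12 in astrocytes and 14.3 ± 11.9 in microglia. For all 3 the steps from oligodendrocytes to OPCs passed the test. The means of the 3 lowest cell types for Gal3st1 lay within the spread of microglia. In a joint edgeR fit of 5 main cell types with the library as a term, oligodendrocytes exceeded astrocytes by 5.89 ± 0.31 on the log2 scale for Fa2h (± SE, adjusted p = 4.08e-10), 5.68 ± 0.21 for Ugt8a (3.91e-13) and 4.80 ± 0.19 for Gal3st1 (1.27e-13). In this fit Gal3st1 was also lower in astrocytes than in neurons, by -0.95 ± 0.20 (adjusted p = 0.000345). Free RNA in the suspension adds UMIs to nuclei of every type, and its part in the low levels outside the oligodendrocyte lineage was not tested.

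**Figure D1:**
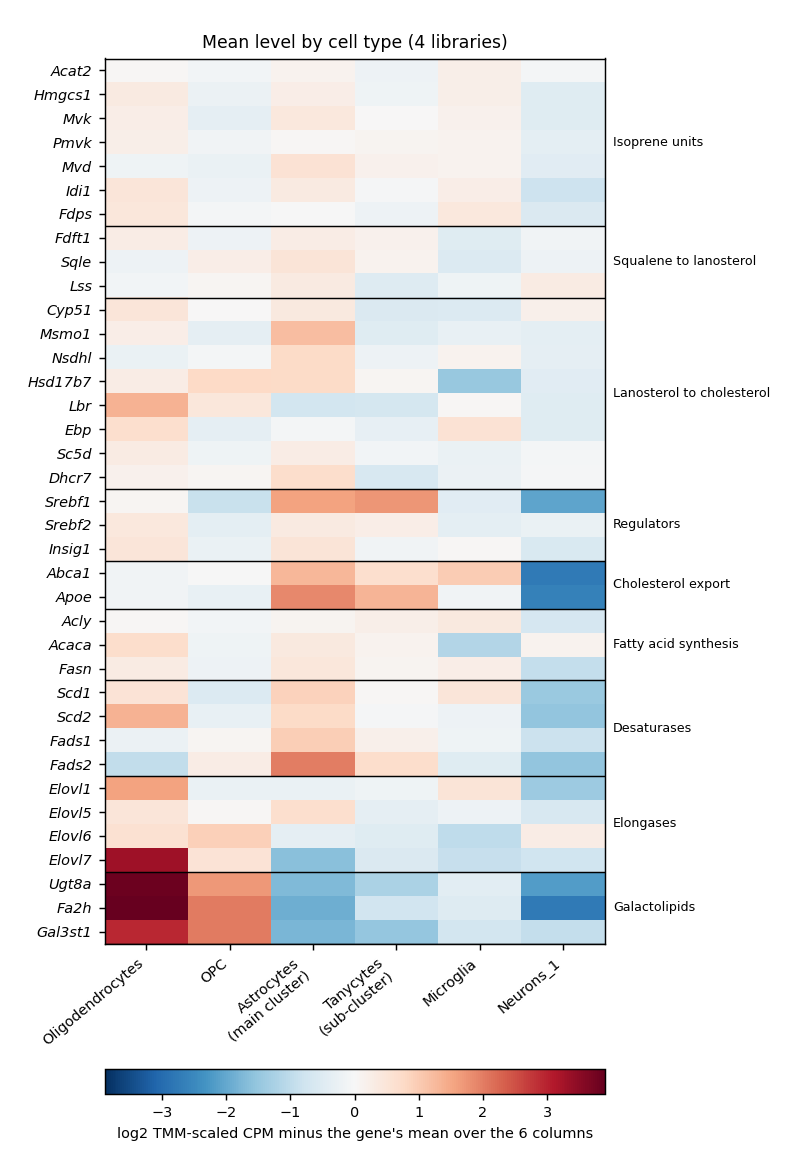
Mean level of each of the 37 members in 5 main clusters and in the tanycyte sub-cluster (columns), as log2 CPM with TMM scaling minus the mean of the gene over the 6 columns. Rows are grouped by step of the pathway; red is above and blue below the mean of the gene, with the galactolipid genes and Elovl7 high in oligodendrocytes and OPCs, and Apoe, Abca1, Srebf1 and Fads2 high in astrocytes.

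Elongases and desaturases, which lengthen and unsaturate fatty acids, divided between oligodendrocytes and astrocytes. Elovl7, Elovl1 and Elovl6, elongases of saturated and monounsaturated chains, were higher in oligodendrocytes, by 5.07 ± 0.20 (adjusted p = 2.18e-13), 1.90 ± 0.25 (3.0e-06) and 1.08 ± 0.11 (1.48e-08). Fads2 and Fads1, the desaturases of polyunsaturated fatty acids, were lower in oligodendrocytes, by -2.82 ± 0.21 (1.03e-08) and -1.04 ± 0.12 (1.11e-07). Fads2 stood at 332 ± 101 CPM in astrocytes against 42.0 ± 9.49 in oligodendrocytes and 28.2 ± 2.66 in neurons. Scd2, the main brain enzyme for monounsaturated chains, was higher in oligodendrocytes at 1510.0 ± 475 against 994 ± 57.6 CPM (log2 difference 0.71 ± 0.16, adjusted p = 0.00131). Against OPCs, Elovl7 had a larger difference (2.82 ± 0.19) than Ugt8a (2.17 ± 0.18), Fa2h (1.90 ± 0.25) and Gal3st1 (0.91 ± 0.16), with Elovl1 at 1.79 ± 0.31 and Scd2 at 1.62 ± 0.17. Elovl5, an elongase of polyunsaturated chains, gave no call, with 71.7 ± 28.4 and 80.6 ± 24.6 CPM.

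Apoe, Abca1 and Srebf1 were higher in astrocytes, whereas enzymes of cholesterol synthesis were called in both directions. Apoe had 12438 ± 5870.3 CPM in astrocytes, 3079 ± 1380.2 in oligodendrocytes, 3042 ± 1000.4 in microglia, 2745 ± 514 in OPCs and 549 ± 189.6 in neurons. It was lower in oligodendrocytes than in astrocytes by -1.90 ± 0.27 on the log2 scale (adjusted p = 1.95e-05), while oligodendrocytes did not pass against microglia or OPCs. Abca1 was lower in oligodendrocytes than in astrocytes by -1.31 ± 0.14 (adjusted p = 3.27e-07) and Srebf1 by -1.29 ± 0.21 (5.26e-05). Srebf2 had 103 ± 15.0 and 99.1 ± 6.65 CPM and Insig1 63.3 ± 19.9 and 64.0 ± 15.1 CPM in oligodendrocytes and astrocytes, and neither passed. Of the 18 enzyme genes of cholesterol synthesis, 4 were higher in oligodendrocytes (Lbr, Ebp, Fdps, Pmvk) and 4 in astrocytes (Nsdhl, Msmo1, Sqle, Dhcr7). The other 10 gave no call, and 26.8% and 26.0% of all genes were called in these directions. Against the astrocyte sub-cluster alone, without tanycytes and vascular leptomeningeal cells, 3 were called higher and 6 lower in oligodendrocytes. In that fit 3158 and 3699 of all 15071 genes tested were called in these directions. There 13 of the 18 estimates were below 0. Lbr, a sterol reductase that is also a protein of the inner nuclear membrane, was highest in oligodendrocytes at 51.4 ± 4.86 CPM and lowest in astrocytes at 12.2 ± 2.39, a log2 difference of 2.19 ± 0.12 (9.0e-13). Msmo1, which removes methyl groups from lanosterol, was higher in astrocytes at 183 ± 51.8 against 95.4 ± 26.5 CPM. Across all 37 members 12 were higher in oligodendrocytes and 9 in astrocytes, where 26.8% and 26.0% of all genes tested were called in these directions.

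**Figure D2:**
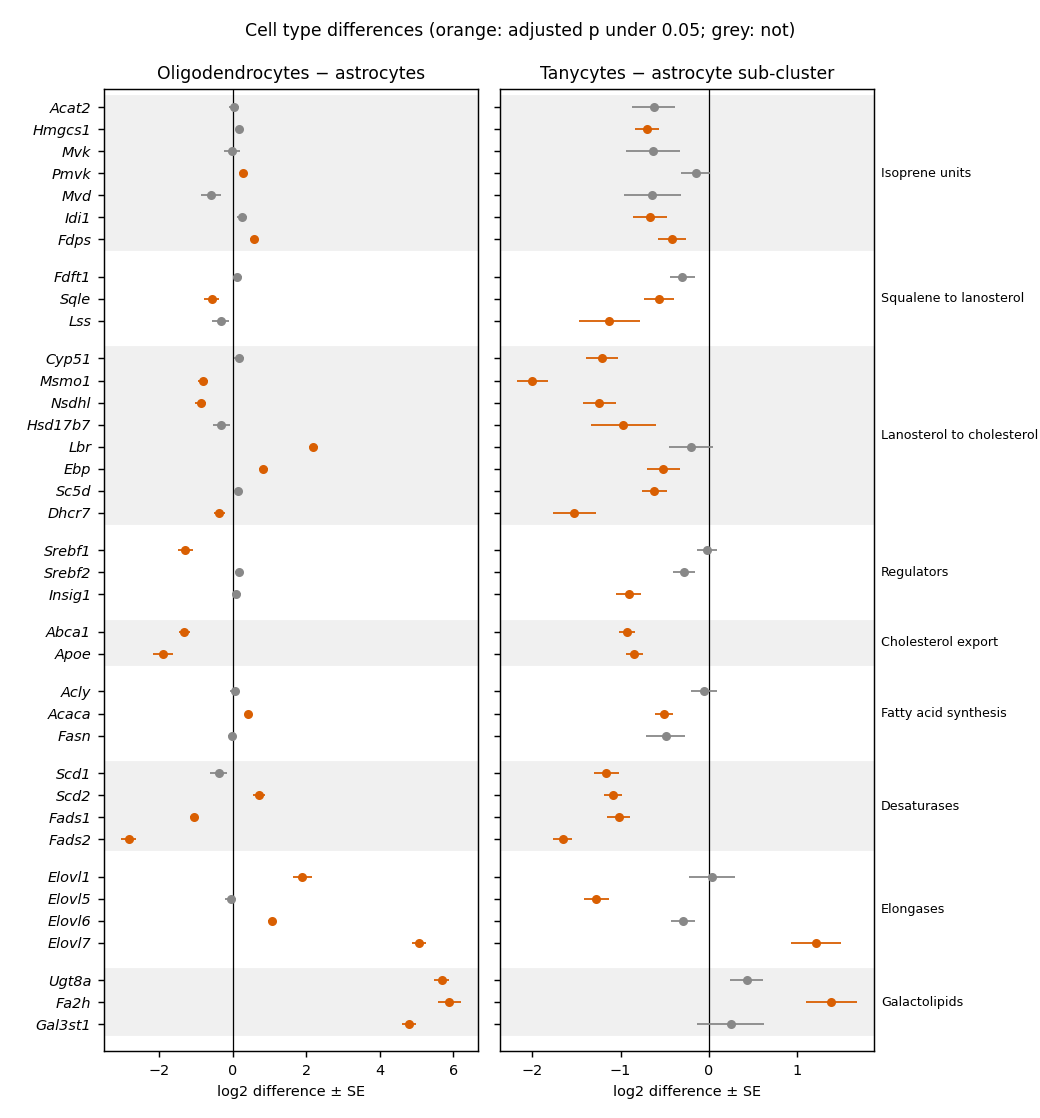
Log2 differences (points, ± SE) of the 37 members between cell types, with oligodendrocytes minus astrocytes from the joint fit of 5 cell types and tanycytes minus astrocytes from the fit of these sub-clusters. Orange points passed an adjusted p of 0.05 and grey ones did not; the galactolipid genes lie at 4.80 to 5.89 on the first axis, and 21 members lie significantly below 0 on the second.

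Against the other cell types the members were mostly higher in oligodendrocytes. They exceeded neurons for 30 of the 37 members (35.7% of all genes were called in this direction), OPCs for 23 (25%) and microglia for 26 (23.2%). This was not particular to oligodendrocytes. Of the 18 enzyme genes, 14 were called higher in astrocytes than in neurons, 6 than in OPCs and 9 than in microglia. Those called lower in astrocytes numbered 1, 1 and 0. Over 15139 genes tested, 5649, 3322 and 3367 were called higher in astrocytes. For oligodendrocytes 11, 10 and 13 of the 18 were called higher and 0 lower. By mean CPM, scaled within each type, oligodendrocytes were highest of the 5 main cell types for 17 members and astrocytes for 16. OPCs were highest for Elovl6 and Hsd17b7 and microglia for Acly and Acat2. These ranks were not tested. The joint fit put Acly and Acat2 higher in oligodendrocytes than in microglia, by 0.09 ± 0.16 and 0.22 ± 0.20, and neither was called. Tanycytes, which share a cluster with astrocytes, held less of most members. In a fit of both sub-clusters with the library as a term, 21 members were lower in tanycytes and 2, Fa2h and Elovl7, were higher, against 17.9% and 19.3% of all genes. All 18 enzyme genes had estimates below 0 and 12 were called. Msmo1 had the lowest estimate of them, at -1.998 ± 0.17 (adjusted p = 6.44e-06), with 56.6 ± 10.2 CPM in tanycytes. Srebf1 was not called, with 164 ± 105 CPM in tanycytes and a difference of -0.02 ± 0.11 (0.901). Other members not called included Acly (-0.05 ± 0.15) and Elovl1 (0.03 ± 0.26).

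In oligodendrocytes most enzymes of cholesterol and fatty acid synthesis had lower levels in TRα1+m than in WT libraries, while Apoe and Gal3st1 had higher ones, and how many passed a test depended on whether the repeat was in the model. In the edgeR quasi-likelihood fit of genotype alone, with Benjamini-Hochberg adjustment over 12630 genes, none of the 37 members passed an adjusted p of 0.05 (0.103% of all genes did). At an unadjusted p below 0.05 there were 8, 6 lower and 2 higher, against 672 of 12630 genes. DESeq2 called Scd1 alone. With the experimental repeat as a term, which pairs the libraries of a repeat, 7 members passed, namely Scd1, Elovl5, Insig1, Msmo1 and Hmgcs1 lower and Apoe and Gal3st1 higher, against 4.35% of all genes. DESeq2 with the same term called Apoe alone. The fit with the repeat leaves 1 degree of freedom a gene, so its spread is borrowed largely from other genes. The median estimate over the 18 enzyme genes was -0.39 on the log2 scale, with 17 of 18 below 0, beside a median of 0.01 over all genes tested. It was -0.50 without library 2 of TRα1+m, -0.22 without library 1 of TRα1+m, -0.55 without library 1 of WT and -0.18 without library 2 of WT. The member without a negative estimate was Ebp, at 26.3 and 58.0 CPM in WT and 23.4 and 71.4 CPM in TRα1+m.

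**Figure D3:**
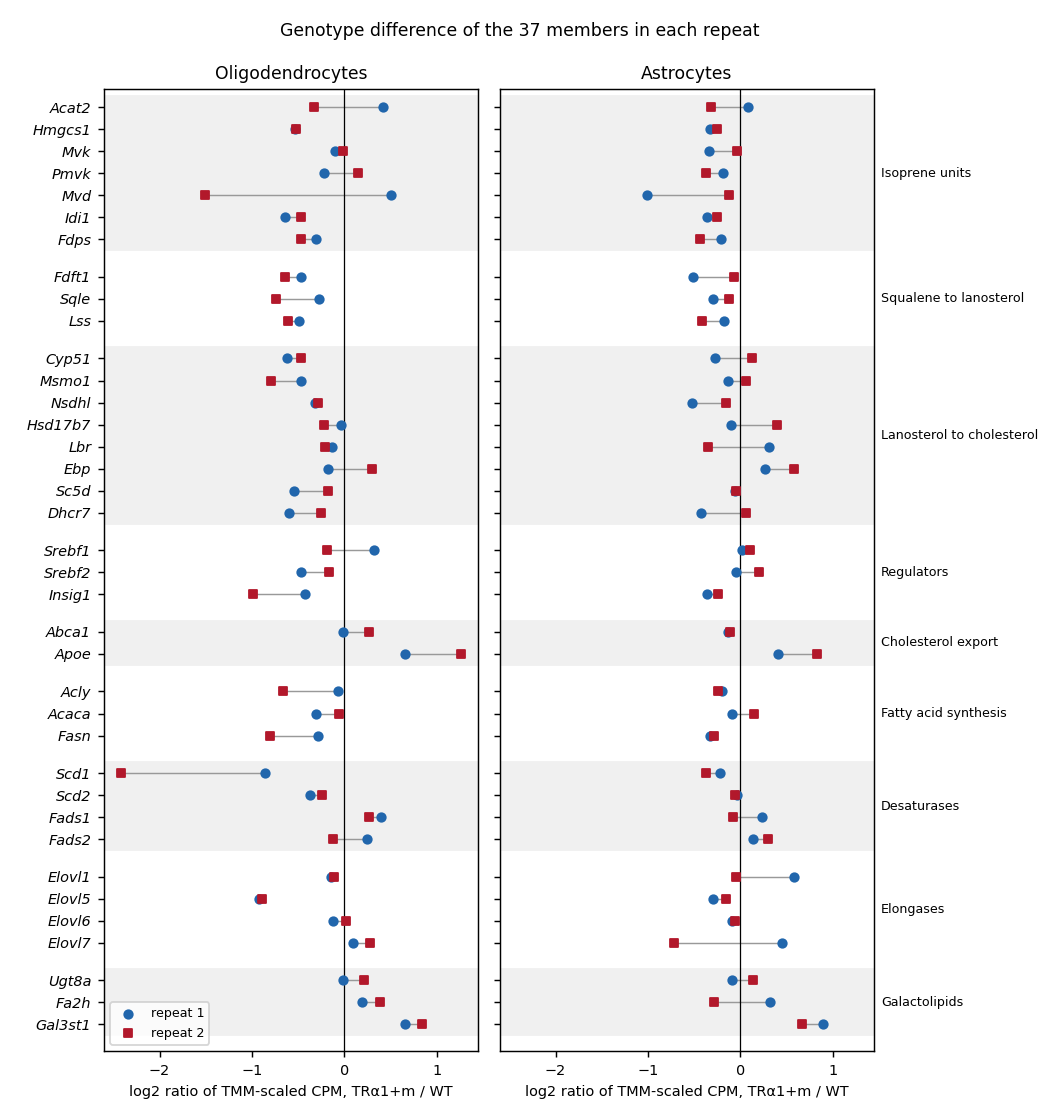
Log2 ratio of CPM (TMM-scaled), TRα1+m over WT, within repeat 1 and within repeat 2 for each of the 37 members in oligodendrocytes and astrocytes. In oligodendrocytes 23 members lie below 0 in both repeats and 5 above, and in astrocytes 19 and 5.

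Scd1, the stearoyl-CoA desaturase that makes oleate (chromosome 19, 44394455 to 44407879, minus strand of GRCm38, as are all positions that follow), had the largest estimate of the members. Its level was 77.5 and 117 CPM in WT libraries 1 and 2 and 42.6 and 21.9 CPM in TRα1+m libraries 1 and 2. Both mutant libraries lay below both WT libraries, with the wider gap in repeat 2. The log2 fold change was -1.59 ± 0.36 (adjusted p = 0.328), and -1.58 ± 0.29 with the repeat (0.0066). Without library 2 of TRα1+m it was -1.20 (0.178). The share of oligodendrocyte nuclei with a Scd1 UMI, after thinning to 1000 UMIs a nucleus, was 7.54% and 11.7% in WT and 3.89% and 2.43% in TRα1+m, against 2.17%, 2.56%, 1.53% and 1.03% in neurons. The unthinned shares in oligodendrocytes were 10.8%, 20.0%, 6.23% and 3.61%, at median depths of 1493, 1811.5, 1516 and 1663 UMIs. Neurons had median depths of 3989.5, 5227, 3797 and 4833.5 UMIs. Thinning left out 75, 12, 64 and 11 shallower oligodendrocyte nuclei. In both genotypes the share was above that of neurons of the same library.

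Elovl5 (chromosome 9, 77917364 to 77984519, plus strand) differed by a similar amount in both repeats. It stood at 79.4 and 108 CPM in WT and at 41.8 and 58.2 CPM in TRα1+m, so the groups did not overlap. The fold change was -0.90 ± 0.25 (adjusted p = 0.484), and -0.90 ± 0.17 with the repeat (3.99e-05). Without library 2 of TRα1+m it was -1.17 (0.0998). After thinning, 7.34% and 10.8% of WT and 3.33% and 4.99% of TRα1+m oligodendrocyte nuclei held an Elovl5 UMI, against 3.21%, 3.70%, 2.86% and 3.68% of neurons. The share of library 1 of TRα1+m was thus close to that of its neurons. Unthinned, the oligodendrocyte shares were 11.8%, 18.8%, 6.17% and 9.20%. The promoter printed for this gene has ATTGG at 71 and at 17 bases before the start and no AGGTCA.

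Insig1, the sterol-sensing anchor, and a pair of cholesterol enzymes differed by smaller amounts. Insig1 (chromosome 5, 28071363 to 28078662, plus strand) had 68.2 and 89.4 CPM in WT and 50.9 and 45.0 CPM in TRα1+m, again without overlap. Its fold change was -0.72 ± 0.21 (adjusted p = 0.553), and -0.71 ± 0.17 with the repeat (0.00406). Msmo1 (chromosome 8, 64718139 to 64733792, minus strand) had 103 and 129.6 CPM in WT against 74.3 and 74.7 CPM in TRα1+m. The mutant libraries were close to each other and below both WT libraries, at -0.64 ± 0.18 (0.53), and -0.64 ± 0.16 with the repeat (0.00406). Hmgcs1, the synthase at the entry of the pathway (chromosome 13, 119690379 to 119708260, plus strand), had 70.1 and 111 CPM in WT and 48.2 and 77.1 CPM in TRα1+m. Here the groups overlapped, and the mutant library was the lower one within each repeat. Its fold change was -0.53 ± 0.32 (0.999), and -0.53 ± 0.16 with the repeat (0.037). Without library 2 of TRα1+m the estimates were -0.64 for Insig1, -0.66 for Msmo1 and -0.92 for Hmgcs1, and none passed.

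**Figure D4:**
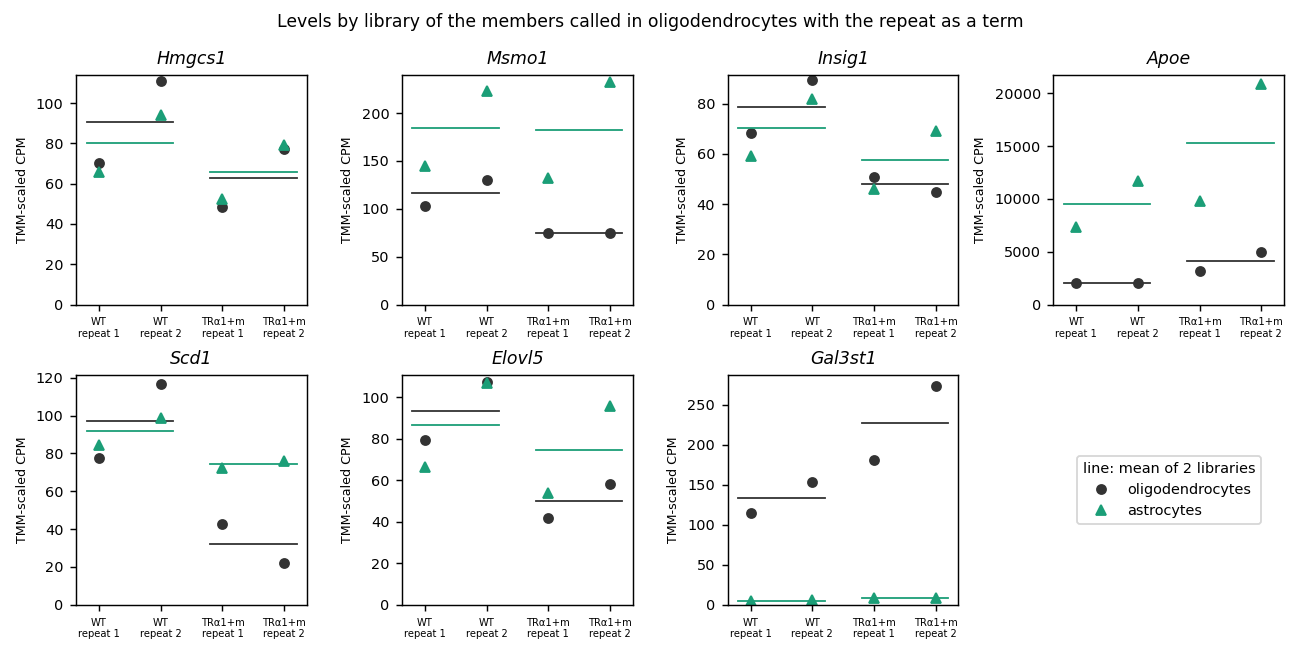
CPM (TMM-scaled) in oligodendrocytes of each library for the 7 members called with the repeat as a term, axes starting at 0. The mutant libraries lie below both WT libraries for Scd1, Elovl5, Insig1 and Msmo1 and above both for Apoe and Gal3st1, while those of Hmgcs1 overlap.

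Gal3st1 and Apoe had higher levels in TRα1+m oligodendrocytes, and neither passed in the fit of genotype alone. The direction was not the same in every other cell type (values for these follow). Gal3st1 (chromosome 11, 3983636 to 3999326, plus strand) had 115 and 153 CPM in WT and 181 and 274 CPM in TRα1+m, without overlap. The fold change was 0.76 ± 0.26 (adjusted p = 0.76), and 0.75 ± 0.15 with the repeat (0.000282), and 0.42 (0.998) without library 2 of TRα1+m. The other galactolipid genes did not pass in either fit, with Ugt8a at 774 and 911 CPM in WT and 769 and 1053 CPM in TRα1+m, and Fa2h at 385 and 536 against 438 and 701 CPM. Both overlapped between genotypes, and their estimates were 0.11 ± 0.20 and 0.31 ± 0.28.

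Apoe, the carrier of exported cholesterol (chromosome 7, 19696109 to 19699188, minus strand), stood at 2038 and 2084 CPM in WT and at 3211 and 4983 CPM in TRα1+m, with a fold change of 0.99 ± 0.22 (adjusted p = 0.296), and of 0.96 ± 0.17 with the repeat (3.07e-05 in edgeR, 0.000127 in DESeq2). Both mutant libraries lay above both WT libraries. Without library 2 of TRα1+m the estimate was 0.63 (adjusted p = 0.33). Unthinned, 94.4% and 94.5% of WT and 98.9% and 97.8% of TRα1+m oligodendrocyte nuclei held an Apoe UMI. After thinning, these were 83.8% and 81.4% of WT and 94.0% and 95.3% of TRα1+m nuclei, and in neurons 44.4% and 32.9% of WT and 55.4% and 31.5% of TRα1+m nuclei. The neuronal share was thus highest in library 1 of TRα1+m and lowest in library 2. The astrocyte gene Agt had 82.5 and 45.2 CPM in WT and 122 and 41.7 CPM in TRα1+m oligodendrocytes. Apoe per Agt UMI in oligodendrocytes was 24.7 and 46.1 in WT and 26.2 and 119.6 in TRα1+m, whereas in neurons it lay between 16.8 and 21.9 in all 4 libraries and in astrocytes between 8.13 and 15.5. In OPCs it was 28.9 and 64.9 in WT and 24.9 and 84.2 in TRα1+m, so oligodendrocytes and OPCs were both higher in repeat 2 and highest in library 2 of TRα1+m. Per UMI of Slc1a2, another astrocyte gene, Apoe in oligodendrocytes was 6.16 and 7.69 in WT and 7.74 and 22.5 in TRα1+m. Per UMI of Aqp4, a further astrocyte gene, it was 47.0 and 68.1 in WT and 46.1 and 177.6 in TRα1+m. Within repeat 1 the mutant oligodendrocytes were thus near WT per Agt and per Aqp4 and above WT per Slc1a2. Within repeat 2 they were above WT by each of these genes. Per Aqp4, OPCs had 60.3 and 108 in WT and 52.7 and 194 in TRα1+m, and microglia 36.6 and 45.8 against 39.9 and 67.6. Per Slc1a2, OPCs had 3.90 and 4.84 against 4.03 and 6.42, and microglia 4.03 and 6.21 against 5.41 and 16.6. Microglia had 23.7 and 18.9 against 19.6 and 27.2 per Agt. Library 2 of TRα1+m was thus highest by each of these genes in OPCs and microglia too. Agt itself was higher in repeat 2 in the astrocyte sub-cluster, at 647 and 1752 CPM in WT and 750 and 2292 CPM in TRα1+m.

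**Figure D5:**
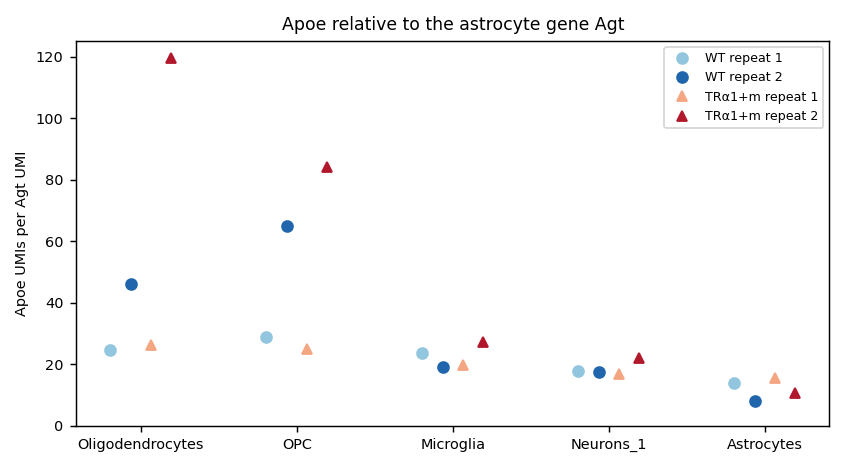
Apoe UMIs per UMI of the astrocyte gene Agt in the summed nuclei of 5 cell types, 1 point a library. Oligodendrocytes of library 2 of TRα1+m reach 119.6 and its OPCs 84.2, while the ratio in neurons stays between 16.8 and 21.9.

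Some markers of other cells were called higher in TRα1+m in the same oligodendrocyte sums, while the summed astrocyte and microglial markers overlapped between genotypes. The summed level of the 7 astrocyte markers was 674 to 862 CPM in WT and 668 to 1211 CPM in TRα1+m. Of them 2, Gfap and Slc1a3, were called higher with the repeat, by 0.66 and 0.52, where 4.35% of all genes were called in either direction. Of the 5 tanycyte markers Vim was called higher by 0.82 with the repeat, and Col23a1, a collagen gene, by 3.94 with or without it. The 5 markers of immature oligodendrocytes summed to 201 to 209 CPM in WT and 246 to 295 CPM in TRα1+m, with Enpp6 called higher by 0.53 with the repeat. Of these 5, Tcf7l2 had 317 to 525 CPM and Itpr2 185 to 222 CPM in the astrocyte sub-cluster. Their sum is thus not particular to immature oligodendrocytes. The 7 markers of mature oligodendrocytes summed to 10806 to 19855 CPM in WT and to 9999.8 to 25531 CPM in TRα1+m, and none was called. Microglial markers summed to 75.1 to 109 CPM and 82.5 to 148 CPM. Mitochondrial UMIs made up 2.31% to 2.45% in WT and 1.79% to 1.97% in TRα1+m. The part of these shifts in the values of the members was not tested.

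The remaining members did not pass. In 15 members both mutant libraries lay below both WT libraries and in 3, Apoe, Gal3st1 and Fads1, above, where 16.0% and 15.9% of all genes did so. Members lower in both repeats numbered 23 of 37, including 14 of the 18 enzyme genes, against 28.6% of all genes. Sqle, the epoxidase of squalene, had 43.8 and 53.8 CPM in WT and 36.2 and 32.2 CPM in TRα1+m (-0.51 ± 0.22). Fasn, the fatty acid synthase, had 32.2 and 42.4 against 26.4 and 24.3 CPM (-0.56 ± 0.24). Neither passed with the repeat (adjusted p 0.148 and 0.157), and for neither did the genotypes overlap. Scd2 differed less than Scd1, with 1272 and 2054 against 984 and 1731 CPM (-0.29 ± 0.35), and its groups overlapped. Of the regulators, Srebf2 had 122 and 105 CPM in WT and 88.6 and 93.6 CPM in TRα1+m (-0.32 ± 0.17), and Srebf1 31.8 and 73.0 against 39.6 and 63.9 CPM (-0.02 ± 0.45). Srebf2 lay lower in both mutant libraries and Srebf1 followed the repeat. Abca1 had 82.9 and 74.0 against 82.2 and 89.1 CPM (0.13 ± 0.17), a difference within the spread.

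In astrocytes the estimates were closer to 0. None of the 37 members passed in the fit of genotype alone (0.0% of 14797 genes did). In that fit only Gal3st1 had an unadjusted p below 0.05, against 255 of 14797 genes. DESeq2 called none. With the repeat Apoe alone passed, against 1.28% of all genes. Apoe had 7381 and 11732 CPM in WT and 9811 and 20829 CPM in TRα1+m, so the groups overlapped while the mutant library was higher within each repeat. The fold change was 0.68 ± 0.42 (adjusted p = 1.00), and 0.62 ± 0.12 with the repeat (0.00051 in edgeR, 0.108 in DESeq2). Without library 2 of TRα1+m it was 0.03. In the astrocyte sub-cluster alone, without tanycytes and vascular leptomeningeal cells, Apoe and Gal3st1 passed with the repeat, at 1.31e-05 and 0.0388. In that fit 245 of all 14072 genes tested passed. Gal3st1 rested on few UMIs in the whole cluster, 22 and 30 in WT and 46 and 37 in TRα1+m, or 4.68 and 5.498 CPM against 8.68 and 8.75 CPM.

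The enzymes of cholesterol synthesis had a median of -0.18 in astrocytes, with 16 of 18 estimates below 0. That median was -0.40 without library 2 of TRα1+m, -0.02 without library 1 of TRα1+m, -0.38 without library 1 of WT and 0.05 without library 2 of WT, so it changed sign in the last of these. Members lower without overlap numbered 7 and higher 1, where 12% and 12.6% of genes did so, and 19 were lower in both repeats against 25.8%. Mvd, a decarboxylase of the isoprene steps, had 10.6 and 12.1 CPM in WT and 5.28 and 11.1 CPM in TRα1+m (-0.49 ± 0.41). Nsdhl and Fdps, of the later and the earlier steps, gave 42.6 and 32.4 against 29.6 and 29.1 CPM (-0.35 ± 0.21) and 34.7 and 42.7 against 30.0 and 31.5 CPM (-0.33 ± 0.20). Ebp went the other way with 16.2 and 28.4 against 19.4 and 42.6 CPM (0.46 ± 0.47), overlapping. For the genes lower in oligodendrocytes, astrocytes gave 84.7 and 99.0 against 72.4 and 76.2 CPM for Scd1 (-0.31 ± 0.15) and 66.2 and 107 against 53.9 and 95.6 CPM for Elovl5 (-0.21 ± 0.36). Insig1 had 59.2 and 81.7 against 46.0 and 69.1 CPM (-0.30 ± 0.27), Hmgcs1 65.7 and 94.2 against 52.3 and 79.3 CPM (-0.29 ± 0.28) and Msmo1 145 and 223 against 132 and 232 CPM (-0.02 ± 0.35). Of these 5 genes only Scd1 had groups that did not overlap.
Srebf1, Srebf2 and Abca1 gave no call between genotypes in astrocytes. Srebf1 had 73.8 and 209 CPM in WT and 74.9 and 225 CPM in TRα1+m, Srebf2 98.1 and 94.6 against 95.1 and 109 CPM, and Abca1 219 and 244 against 199.6 and 225 CPM. Srebf1 split by repeat rather than by genotype.

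The difference between cell types in the genotype effect was tested directly. No member passed in the interaction of genotype with oligodendrocytes against astrocytes (0.0476% of all genes did), nor with the repeat (0.327%). At an unadjusted p below 0.05 there was 1 member without and 5 with the repeat, all more negative in oligodendrocytes, against 388 and 873 of 14693 genes. Scd1 had an interaction of -1.29 ± 0.43 (adjusted p = 1.00) and Elovl5 of -0.69 ± 0.51, or -0.67 ± 0.18 with the repeat (adjusted p = 0.282). The library was not a term in these fits, although both cell types come from the same libraries, so this pairing was not used. A larger effect in oligodendrocytes was therefore not shown for any member.

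The same members were also measured in the other cell types. In neurons none passed in either fit, where 0.0% of all genes were called, or 0.01% with the repeat. In the fit of genotype alone 1 member had an unadjusted p below 0.05, against 193 of 19926 genes. Estimates were below 0 for 34 of 37 members, and 27 were lower in both repeats against 27.4% of all genes. With the repeat 12 had an unadjusted p below 0.05, against 1583 of 19926 genes. DESeq2 called no member in neurons, OPCs or microglia, with or without the repeat. The cholesterol synthesis enzymes had a median estimate of -0.19 in neurons (17 of 18 below 0) and -0.06 in OPCs (9 of 16). It was -0.31 in microglia (10 of 14) and -0.31 in tanycytes (10 of 14). In neurons 16 of the 18 were lower in both repeats. Insig1 in neurons had 29.3 and 40.9 CPM in WT and 20.8 and 28.6 CPM in TRα1+m (-0.51 ± 0.26), and Scd1 20.6 and 22.5 against 14.6 and 7.91 CPM (-0.94 ± 0.33). For both genes the mutant library lay below the WT library in each repeat. In OPCs none of the 35 members tested passed (0.0%), with 3 at an unadjusted p below 0.05 against 185 of 11248 genes. With the repeat Scd1 passed, at 39.2 and 42.4 CPM in WT and 24.8 and 15.7 CPM in TRα1+m (-1.004 ± 0.27, adjusted p = 0.0398, against 0.569% of genes). In microglia none of 31 passed in either fit (0.0% and 0.335% of genes). At an unadjusted p below 0.05 there were 0 and 3, against 226 and 634 of 10451 genes. Members lower in both repeats numbered 17 in OPCs and 12 in microglia, against 26.6% and 25.4% of genes. In tanycytes Apoe passed with the repeat, with 4954 and 7959.5 CPM in WT and 6455 and 14612 CPM in TRα1+m (0.63 ± 0.16, 0.0302, against 0.481%). The log2 ratio of Apoe, TRα1+m over WT, within repeats 1 and 2 was 0.28 and 0.17 in OPCs. It was 0.60 and 0.69 in microglia and 0.47 and -0.097 in neurons. For Gal3st1 it was 0.18 and 0.05 in neurons, 0.21 and 0.29 in OPCs and -0.70 and -0.51 in tanycytes. In microglia, where Gal3st1 was not among the members tested, it was 1.13 and 1.74. Mean levels of Gal3st1 were low there, at 7.25 ± 3.20 CPM in WT and 21.3 ± 14.7 CPM in TRα1+m. Tanycytes had 9.97 ± 0.25 and 6.56 ± 0.44 CPM. Whether the ratios reflect shifts common to all nuclei of a library was not tested.

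Members also differed between the experimental repeats. With genotype in the fit, 8 members were higher in repeat 2 in oligodendrocytes and 0 lower, where 5.15% and 7.27% of all genes were called (1 member, Fads2, was lower at an unadjusted p below 0.05). In astrocytes 16 were higher and 1, Elovl7, lower, against 9.64% and 11%. Elovl1 rose by 1.76 ± 0.20 and Ebp by 1.37 ± 0.20 in oligodendrocytes of repeat 2, and Srebf1 by 1.54 ± 0.12 in astrocytes and 0.94 ± 0.18 in oligodendrocytes. Of the 7 members called by genotype in oligodendrocytes, Hmgcs1 (0.67 ± 0.16, adjusted p = 0.0018) and Gal3st1 (0.51 ± 0.15, 0.0147) were also called higher in repeat 2, and Scd1, Insig1, Msmo1, Elovl5 and Apoe were not.

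Further genes of lipid metabolism were tested beside the members. None of 18 genes of cholesterol handling, 18 of fatty acid metabolism and 15 of sphingolipid metabolism tested in oligodendrocytes passed in the fit of genotype alone, where 0, 1 and 0 had an unadjusted p below 0.05, nor did any of 19, 20 and 16 in astrocytes, where 1 of each had. Over all genes tested, 672 of 12630 in oligodendrocytes and 255 of 14797 in astrocytes had such a p in that fit. With the repeat 2 of the fatty acid genes passed in oligodendrocytes and none of the other lists, where 4.35% of all genes did. Acss2, which makes acetyl-CoA from acetate, had 71.7 and 71.6 CPM in WT and 40.3 and 49.5 CPM in TRα1+m (-0.68 ± 0.18, adjusted p = 0.00758), so all mutant values lay below WT. Fabp7, a fatty acid binding protein of glia, had 85.2 and 57.0 against 184 and 80.4 CPM (0.83 ± 0.16, 9.6e-05), with overlap. Fabp7 was also called higher with the repeat in OPCs (0.85 ± 0.18), microglia (0.998 ± 0.23) and tanycytes (0.94 ± 0.22). In neurons it had 28.2 and 17.7 CPM in WT and 66.2 and 24.7 CPM in TRα1+m (0.87 ± 0.19, adjusted p = 0.441). The mutant library was the higher one within each repeat in neurons and in all these glial types, which come from the same libraries, and whether this is a shift common to all nuclei of a library was not tested. In astrocytes Fabp7 (0.96 ± 0.12), Elovl2 (0.73 ± 0.18), the apolipoprotein gene Clu (0.77 ± 0.11) and Mylip (0.70 ± 0.19), whose product degrades lipoprotein receptors, passed with the repeat, where 1.28% of all genes did, and none without it. All 4 estimates were higher in TRα1+m. No sphingolipid gene passed in either cell type. In the same astrocyte sums the astrocyte markers Aqp4 and Gfap were called higher with the repeat.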

How the data were processed

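Nuclei were isolated from snap-frozen hypothalamus and sequenced with 10x Genomics chemistry, 1 library for each pool of 3 mice, 2 libraries per genotype and 4 in all. The authors made the deposited counts (UMIs per gene and nucleus) with Cell Ranger 5.0.1 on mm10, intronic reads included, then filtered and annotated nuclei with Seurat (tools and build also in the submitters' processing notes). Their annotation defined the cell types, and only annotated nuclei were used. No doublet caller was run here. No per-sample column was left unmapped (0). The annotated nuclei of the cluster called Neurons_1 are the neurons of the text.

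Raw UMIs were summed per library and main cluster, since nuclei are not replicates. Differences were tested with edgeR 4.0.16 in R 4.3.3 (quasi-likelihood F-test, TMM, filterByExpr, two-sided, Benjamini-Hochberg adjustment over all genes tested, threshold 0.05), with DESeq2 1.42.0 as an alternative. All adjusted p-values are edgeR's unless DESeq2 is named. Sums, shares and promoter searches were made in Python 3.11.15. Levels are TMM-scaled CPM, chosen after the data were seen in place of plain CPM. The scripts were checked on simulated data. The astrocyte cluster also holds tanycytes and vascular leptomeningeal cells. Each repeat held 1 library of each genotype, and the repeats pair the libraries: deviations of same-numbered libraries from their genotype means correlated across genes at r = 0.541 in oligodendrocytes, 0.668 in astrocytes, 0.667 in neurons, 0.495 in OPCs and 0.393 in microglia. Values with the repeat as a block are therefore given where they change a call.

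The members and all lists were chosen with earlier results of these data known. Library values are printed for members called in oligodendrocytes or astrocytes with or without the block, for the 6 with the largest estimates in each, and for 13 preset members (regulators, exporters, galactolipid genes, Hmgcs1, Sqle, Fasn, Scd1 and Scd2). Elsewhere, genes were named after their values were seen. Alternatives were RLE size factors, no filter, DESeq2, a bias-adjusted fit, the block, each library left out, equal nuclei per library (1396 oligodendrocytes, 1983 astrocytes) and the astrocyte sub-cluster alone.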

Additional observations from a re-analysis of the deposited data

How the results depend on the processing

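The genotype estimates of members named with library values in oligodendrocytes and astrocytes gave 34 results and 446 alternatives. Of these alternatives 395 kept their direction and side of the threshold and 23 passed it newly. Another 28 changed sign, 22 of these with a library left out, and the cause was not tested. None of the 34 passed in the main fit, so none could lose the threshold. Differences between cell types, between repeats and in the interaction are not in this tally. In oligodendrocytes 0 members passed by genotype in the main fit. With the replicate block the count was 7, with DESeq2 it was 1, with DESeq2 and the block 1, with the bias-adjusted fit and the block 7, and with 1 library left out it lay between 0 and 3, the highest without library 1 of TRα1+m (Apoe, Gal3st1 and Scd1). Leaving out 1 library leaves a lone library in its genotype, whose spread is taken to equal that of the other genotype. Counts of members called in those fits are therefore not given here. Over all 12630 genes tested the count of genes called was 13 in the main fit, 550 with the block, 74 with DESeq2 and 148 with DESeq2 and the block. Without the filter 120 of 21458 genes were called. In astrocytes the block gave 1, with the bias-adjusted fit 1, and in the sub-cluster alone 2. Over all genes tested these fits called 190 of 14797, 235 of 14797 and 245 of 14072. In neurons, OPCs and microglia together the block gave 1, also in the bias-adjusted fit. The block changed no call in the interaction, where none of 7 alternatives gave a member. Of the 21 members called between oligodendrocytes and astrocytes, 12 had a fold of at least 2. Over all 15139 genes tested 7992 were called, and 3813 of these had such a fold.

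Srebf1 in oligodendrocytes (-0.024 on the log2 scale) was 0.025 with the block, 0.031 with the bias-adjusted fit and the block, 0.049 with DESeq2 and the block and 0.012 with equal nuclei, and -0.50 to 0.71 with a library left out. Also with a library left out, oligodendrocytes gave -0.76 to 0.10 for Scd2, -0.14 to 0.32 for Ugt8a and -0.080 to 0.60 for Fa2h. Astrocytes gave -0.54 to 0.071 for Sqle, -0.48 to 0.33 for Msmo1, -0.21 to 0.93 for Ebp, -0.92 to 1.021 for Srebf1, -0.025 to 0.17 for Srebf2, -0.12 to 0.029 for Scd2, -0.69 to 0.17 for Elovl5, -0.19 to 0.25 for Ugt8a and -0.44 to 0.46 for Fa2h. Ugt8a was -0.015 in the astrocyte sub-cluster, and -0.015 there with the block. Leaving out a library could not be run for the repeats, which leaves no residual degrees of freedom. With 2 pools per genotype, differences between pools, genotype and handling within a pool cannot be told apart.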

Other observations

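Of the annotated neuronal sub-clusters, 12 held 10 or more nuclei in each library. Several members had unequal levels among them, given as CPM (mean ± SD over 4 libraries) with no test. The sub-cluster labelled MCH had the highest level of the cholesterol exporters, Abca1 at 57.1 ± 6.14 against 8.18 ± 6.42 in somatostatin neurons, and Apoe at 1986 ± 151 against 416 ± 172 in orexin neurons. It was also highest for Fads2, at 68.6 ± 13.3 against 12.5 ± 5.78 in somatostatin neurons, and for Srebf1, at 29.7 ± 9.42 against 4.36 ± 2.97. Its nuclei had median depths of 1855 and 1481 UMIs in WT and 3840 and 1499 UMIs in TRα1+m, against 3850 to 5375 in the somatostatin sub-cluster. Whether it also holds nuclei of other cells was not tested, so these levels cannot be assigned to MCH neurons. Hmgcs1 was highest in orexin neurons at 126 ± 42.6 and lowest in somatostatin neurons at 36.1 ± 20.9. Elovl7 ranged from 5.92 ± 4.59 in oxytocin neurons to 59.8 ± 9.72 in a CART sub-cluster, and Ugt8a from 5.21 ± 2.61 in NPY/AgRP neurons to 46.6 ± 5.52 in vasopressin neurons. Sub-clusters were formed from the same nuclei, and labels were not checked against markers, so these values are descriptions.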
